A study of Mus musculus with 12 samples.

Results

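Major urinary proteins are small secreted lipocalins, and the 10 genes described here were Mup1, Mup2, Mup3, Mup7, Mup9, Mup15, Mup17, Mup18, Mup20 and Mup21. They were taken by symbol from a table of exon counts in mouse liver, and they are 10 of its 38087 gene rows. The livers came from germ-free male C57BL/6J mice, aged 13 to 16 weeks and sampled at zeitgeber time 2. In the ghrelin group, 6 mice had received rat ghrelin under the skin at 10 µg per mouse each day for 5 days. In the PBS group, 6 mice had received the phosphate-buffered vehicle on the same schedule. Every animal of both groups lacked gut microbes, so no value here speaks of a colonised mouse, and the peptide was the rat form given to mice. Total RNA depleted of ribosomal RNA was sequenced from 1 library per sample, in 12 libraries. The comparison asks what daily ghrelin did to the liver transcriptome in the absence of a microbiota. No label says that each library came from a separate animal. If some did not, a p-value here reflects library-to-library variation that may be technical.

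A major urinary protein folds into a barrel that holds small volatile molecules. Hepatocytes secrete it into the blood, the kidney filters it into the urine, and the mixture of forms that a male leaves behind carries his scent signature to other mice. Transcription of these genes in male liver is known to depend on the pulses in which the pituitary releases growth hormone, and ghrelin is a stomach hormone known to release growth hormone through a receptor of its own. The genes form a dense array of recent duplicates on mouse chromosome 4, so they fall into a central set of nearly identical copies and a few older, more divergent genes at the edge of the array. Mup20, known as darcin, is one of the divergent ones and encodes a male pheromone that attracts females. Mup3 and Mup21 are the others among the 10.

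All 10 genes were annotated as protein-coding on the minus strand of chromosome 4 (GENCODE M21, GRCm38, the assembly also called mm10). From the lowest coordinate upward they were Mup7 at chr4:60066469-60070475, Mup2 at chr4:60135932-60154289, Mup9 at chr4:60418046-60421952 and Mup1 at chr4:60498012-60501960. Then came Mup15 at chr4:61435790-61439743, Mup17 at chr4:61591929-61595871 and Mup18 at chr4:61670177-61674136. Mup20 at chr4:62050234-62054158, Mup3 at chr4:62083476-62087342 and Mup21 at chr4:62147932-62150863 closed the array. The whole array of Mup genes and pseudogenes ran over 2.19 Mb, from position 59956804 to position 62150863, and 47 rows of the count table lay in it under a Mup name in that annotation (21 protein-coding genes and 26 pseudogenes). By the symbols of the table itself there were 43 Mup rows, 1 of them on chromosome 11, and the 5 pseudogenes that the table lists under other symbols held 0 to 66 counts each over all libraries.

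The copies are alike enough to matter for every value below. The transcripts of the 7 central genes (Mup1, Mup2, Mup7, Mup9, Mup15, Mup17 and Mup18) were 98.4% to 99.6% identical over their aligned bases in all 21 pairs. Each of the 3 peripheral genes (Mup3, Mup20 and Mup21) was 83.9% to 91.2% identical to a central one. Mup3 and Mup21 were 96.1% identical to each other. A 60-base stretch of the coding sequence, bases 13 to 72 of the Mup17 coding sequence counted from its first base, is printed for the genes that differ in it because it was the stretch with the most distinct forms within 1 exon. It had 7 forms among the 10 genes and 13 positions that varied. Capitals mark bases that differ from the most frequent base at that position among the 10, all are read 5′ to 3′ on the minus strand from GRCm38, and Mup2, Mup9 and Mup18 have the same letters as Mup17.

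Mup17 (chr4:61595689-61595748): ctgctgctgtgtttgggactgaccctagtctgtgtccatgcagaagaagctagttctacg
Mup15 (chr4:61439561-61439620): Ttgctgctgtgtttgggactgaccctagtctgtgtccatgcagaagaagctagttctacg
Mup1 (chr4:60501778-60501837): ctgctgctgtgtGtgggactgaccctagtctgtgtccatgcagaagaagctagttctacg
Mup7 (chr4:60070229-60070288): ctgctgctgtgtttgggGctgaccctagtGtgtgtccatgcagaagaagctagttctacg
Mup20 (chr4:62053975-62054034): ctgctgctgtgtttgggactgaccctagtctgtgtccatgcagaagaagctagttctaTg
Mup3 (chr4:62087148-62087207): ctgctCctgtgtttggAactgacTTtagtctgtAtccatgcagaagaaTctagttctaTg
Mup21 (chr4:62150678-62150737): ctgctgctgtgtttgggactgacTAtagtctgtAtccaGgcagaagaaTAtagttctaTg

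Mup3 and Mup21 carried 7 such bases each in this stretch, Mup7 carried 2, and Mup1, Mup15 and Mup20 carried 1 each. Reads were 125 bases long at either end of a fragment, so the share of 125-base windows of a transcript that occur in no other annotated gene gives a measure of how well its reads can be placed. That share was 99.9% for Mup3, 99.8% for Mup21 and 66.2% for Mup20, whose other windows all matched the pseudogene Mup-ps19. It was 49.8% for Mup17, 23.2% for Mup7, 17.7% for Mup9, 16.3% for Mup1 and 13.3% for Mup18. It was 5.87% for Mup15 and 5.85% for Mup2. How reads that fit several genes were counted is not given in the sources used here. The values of single central genes are therefore uncertain as to which copy the RNA came from. If every read was counted under some copy, a sum over copies does not depend on how reads were divided among the copies in it. If reads that fit several genes were dropped, those shared among the copies are missing from the sum as well. A sum also depends on reads shared with rows outside it. Of the windows of Mup1, 74.6% also occurred in Mup12, and of those of Mup18, 67.0% occurred in Mup19, neither of which is among the 10.

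Library totals ran from 15775059 to 21457627 counts in ghrelin livers and from 18746597 to 22302533 counts in PBS livers, and 14170 genes passed the filter on low counts, all 10 Mup genes among them. Markers of hepatocytes, the cells that make these proteins, dominated every library, with a summed level of 6 markers of 84575 to 103007 CPM (counts scaled to a common library size) in ghrelin livers and 88090 to 120131 CPM in PBS livers. The 4 markers of neutrophils summed to 0.816 to 4.40 CPM in ghrelin livers and 3.76 to 9.33 CPM in PBS livers, and the 4 male markers to 169 to 206 CPM in ghrelin livers and 180 to 246 CPM in PBS livers. No tested marker of the cell types examined was called, and the summed ranges of the 2 groups overlapped for each type. The part of neutrophil RNA in the results below was not tested. Over all genes, edgeR's quasi-likelihood test called 15 of 14170 (0.106%) at a Benjamini-Hochberg adjusted p under 0.05, of which 6 (0.0423%) were higher in ghrelin livers. That count rests on single libraries: leaving out ghrelin 1 or ghrelin 3 left 0 calls, leaving out PBS 3 left 5, and leaving out ghrelin 6 or ghrelin 2 left 6 or 9. Omitting PBS 6, PBS 5 or ghrelin 4 gave 23, 24 or 32 calls.

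Taken as a family, Mup RNA was more abundant in ghrelin livers than in PBS livers on average, and most of the single genes leaned the same way, but no member passed the test across all genes. The 10 genes summed to 14247 ± 993 CPM in ghrelin livers and 11400 ± 1968 CPM in PBS livers (SD, n = 6 each). They made up 1.42% ± 0.116 of all counts in ghrelin livers and 1.14% ± 0.209 in PBS livers (SD, n = 6 each). By library the sum was 14962, 12715, 14915, 13671, 13892 and 15327 CPM in ghrelin livers 1 to 6, against 10474, 10570, 10662, 9209, 12878 and 14607 CPM in PBS livers 1 to 6. PBS 1 to 4 lay below every ghrelin liver, while PBS 5 lay above ghrelin 2 alone and PBS 6 above all ghrelin livers but ghrelin 1, ghrelin 3 and ghrelin 6. When the sum replaced its members in the fit, its log2 fold change was 0.32 (SE 0.10), a 1.25-fold higher level. In bulk tissue, fewer cells of a type and less RNA per cell cannot be told apart.

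Of the 10 members, 9 had a positive log2 fold change, with a median of 0.79 where 50% of all tested genes had a positive one and their median lay at 3.19e-05. Mup9 passed the filter on low counts only through the ghrelin livers, and without it 8 of 9 were positive with a median of 0.73. None was called by edgeR's quasi-likelihood test with Benjamini-Hochberg adjustment over all genes. At an unadjusted p under 0.05, 7 were higher (Mup1, Mup3, Mup7, Mup15, Mup18, Mup20 and Mup21), where 6.44% of all tested genes were. No member had ranges without overlap between the groups, which 0.367% of tested genes had in the higher direction. DESeq2, which called 204 of 14170 genes, called 1 member, Mup1, at an adjusted p of 0.0133. With PBS 6 left out, edgeR called 23 of 14294 genes, Mup1 among them at an adjusted p of 0.0335. Since the members share reads and follow each other across livers, these counts are not 10 separate observations.

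**Figure D1:**
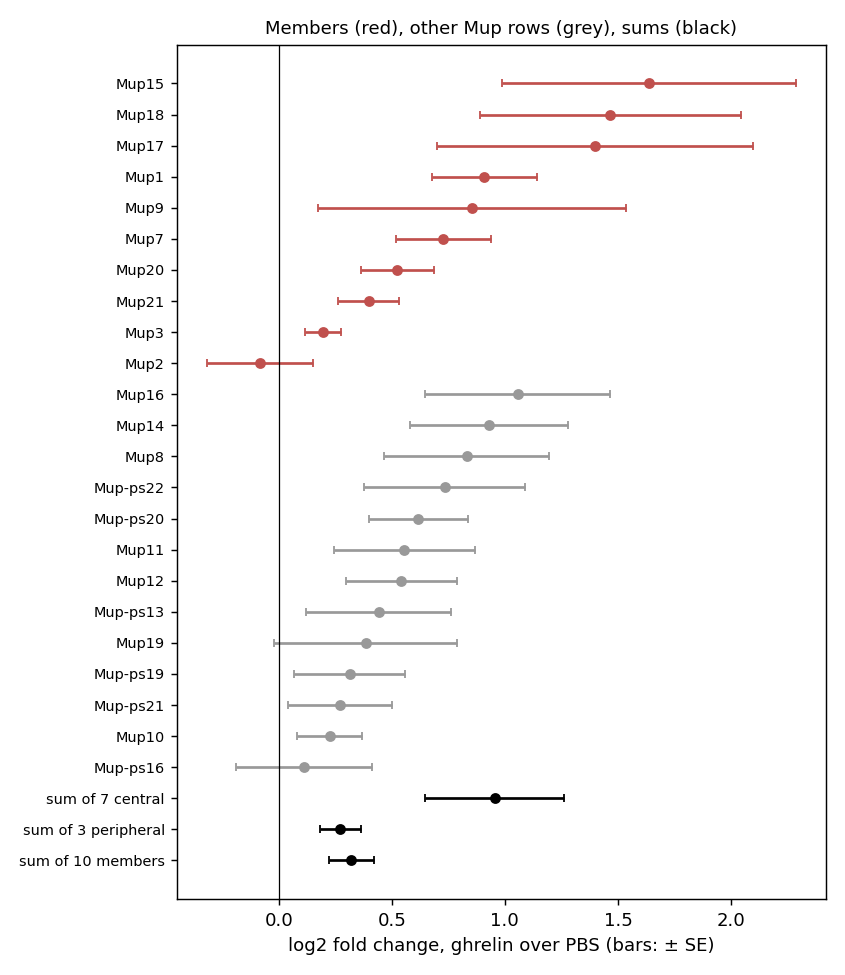
Log2 fold change of ghrelin over PBS livers (x axis; bars are ± 1 SE) for the 10 Mup genes in red, the other 13 tested Mup rows in grey and 3 sums in black. All points but Mup2 at -0.08 lie to the right of 0. Mup15, Mup18 and Mup17 lie farthest out at 1.40 to 1.64, and Mup3 lies at 0.20.

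Mup3, the most abundant member, had 8780 to 10088 CPM in ghrelin livers with a median of 9679, against 7239 to 10191 CPM in PBS livers with a median of 8037. By library it had 9565, 8780, 10088, 9793, 9161 and 9952 CPM in ghrelin 1 to 6, and 8024, 7644, 8051, 7239, 8884 and 10191 CPM in PBS 1 to 6. The ghrelin livers formed a narrow band, and the highest liver of all 12 was PBS 6. The means were 9556 ± 501 CPM in ghrelin livers and 8339 ± 1058 CPM in PBS livers (SD, n = 6 each), a log2 fold change of 0.20 (SE 0.08). Its adjusted p was 0.308 by edgeR's quasi-likelihood test with Benjamini-Hochberg adjustment.

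Mup20, the darcin gene, spread wider. It had 3863, 2802, 2787, 2395, 2844 and 3321 CPM in ghrelin livers 1 to 6, against 1681, 2248, 1871, 1328, 2532 and 2855 CPM in PBS livers 1 to 6. PBS 1 to 4 lay below all ghrelin livers, and 2 ghrelin livers lay above all PBS livers. Its mean was 3002 ± 515 CPM in ghrelin livers and 2086 ± 566 CPM in PBS livers (SD, n = 6 each). The log2 fold change was 0.53 (SE 0.16), with an adjusted p of 0.206 by edgeR's quasi-likelihood test with Benjamini-Hochberg adjustment.

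Mup21, the gene at the end of the array, had 341 to 524 CPM in ghrelin livers with a median of 425, against 237 to 411 CPM in PBS livers with a median of 335. Ghrelin 2 was its highest liver, although that animal was low for most other members, and 4 ghrelin livers lay above every PBS liver. Its log2 fold change was 0.40 (SE 0.13), with an adjusted p of 0.242 by edgeR's quasi-likelihood test with Benjamini-Hochberg adjustment. Summed, the 3 peripheral genes had 12993 ± 726 CPM in ghrelin livers and 10754 ± 1632 CPM in PBS livers (SD, n = 6 each), a log2 fold change of 0.27 (SE 0.09).

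Among the central genes, Mup7 was the most abundant. It had 537 to 952 CPM in ghrelin livers with a median of 814, against 332 to 742 CPM in PBS livers with a median of 391. The PBS livers divided into 4 low ones and a higher pair, PBS 5 and PBS 6, which lay above ghrelin 2 and below the other 5 ghrelin livers. The mean was 797 ± 150 CPM in ghrelin livers and 481 ± 187 CPM in PBS livers (SD, n = 6 each). Its log2 fold change was 0.73 (SE 0.21), with an adjusted p of 0.182 by edgeR's quasi-likelihood test with Benjamini-Hochberg adjustment.

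Mup17 showed the same division more sharply. It had 157, 29.3, 296, 195, 287 and 349 CPM in ghrelin livers 1 to 6, against 13.0, 16.8, 21.9, 35.8, 182 and 229 CPM in PBS livers 1 to 6. Ghrelin 2 and PBS 1 to 4 were low and the other 7 livers were high, and no liver lay between 35.8 and 157 CPM. Its log2 fold change was 1.40 (SE 0.70), and the adjusted p was 0.404 by edgeR's quasi-likelihood test with Benjamini-Hochberg adjustment. That log2 fold change was 1.18 without PBS 1 and 2.02 without PBS 6. Mup15, with few windows of its own, had 160, 27.9, 266, 181, 286 and 330 CPM in ghrelin livers 1 to 6, and 10.6, 21.2, 28.4, 24.7, 170 and 147 CPM in PBS livers 1 to 6. The same 5 livers were low for it. Its log2 fold change of 1.64 (SE 0.65) was the largest of the 10 with all libraries in the fit, though not without PBS 6, and it had an adjusted p of 0.299 by edgeR's quasi-likelihood test with Benjamini-Hochberg adjustment.

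The other 4 central genes were at low levels. Mup18 had 29 to 290 counts per ghrelin library and 16 to 205 counts per PBS library, with 1.82 to 14.3 CPM in ghrelin livers and 0.725 to 9.35 CPM in PBS livers. Mup9 had 10 to 124 counts per ghrelin library and 3 to 129 per PBS library. At the filter's floor of 0.494 CPM, Mup9 was over it in 6 ghrelin livers and in 2 PBS livers, so it was kept through the group in which it was high. The log2 fold change was 1.47 (SE 0.58) for Mup18 and 0.86 (SE 0.68) for Mup9. Both rest in part on PBS 6, without which they were 2.19 and 1.76. Other single libraries moved them the other way, to 1.26 for Mup18 without PBS 2 and to 0.58 for Mup9 without ghrelin 6.

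Mup1 had 10.3 to 16.4 CPM in ghrelin livers with a median of 12.9, against 4.44 to 12.3 CPM in PBS livers with a median of 5.27. PBS 1 to 4 were far below every ghrelin liver and 3 ghrelin livers were above every PBS liver. Its mean was 13.0 ± 2.29 CPM in ghrelin livers and 6.92 ± 3.25 CPM in PBS livers (SD, n = 6 each), and its log2 fold change was 0.91 (SE 0.23). The adjusted p was 0.147 by edgeR's quasi-likelihood test with Benjamini-Hochberg adjustment, with the smallest unadjusted p of the 10 members (0.00132, number 127 of the 14170 genes).

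Mup2 was the exception. It had 2.20 to 3.94 CPM in ghrelin livers with a median of 3.20, against 1.45 to 5.11 CPM in PBS livers with a median of 3.24. The range of the ghrelin livers lay within that of the PBS livers, which held both the lowest and the highest liver. Its log2 fold change was -0.08 with a 95% confidence interval from -0.58 to 0.42, so the data allow a moderate difference in either direction. Without ghrelin 2 the log2 fold change was 0.00249, and without PBS 6 it was 0.08. Summed, the 7 central genes had 1253 ± 378 CPM in ghrelin livers and 647 ± 362 CPM in PBS livers (SD, n = 6 each), a log2 fold change of 0.95 (SE 0.31) or 1.94-fold.

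**Figure D2:**
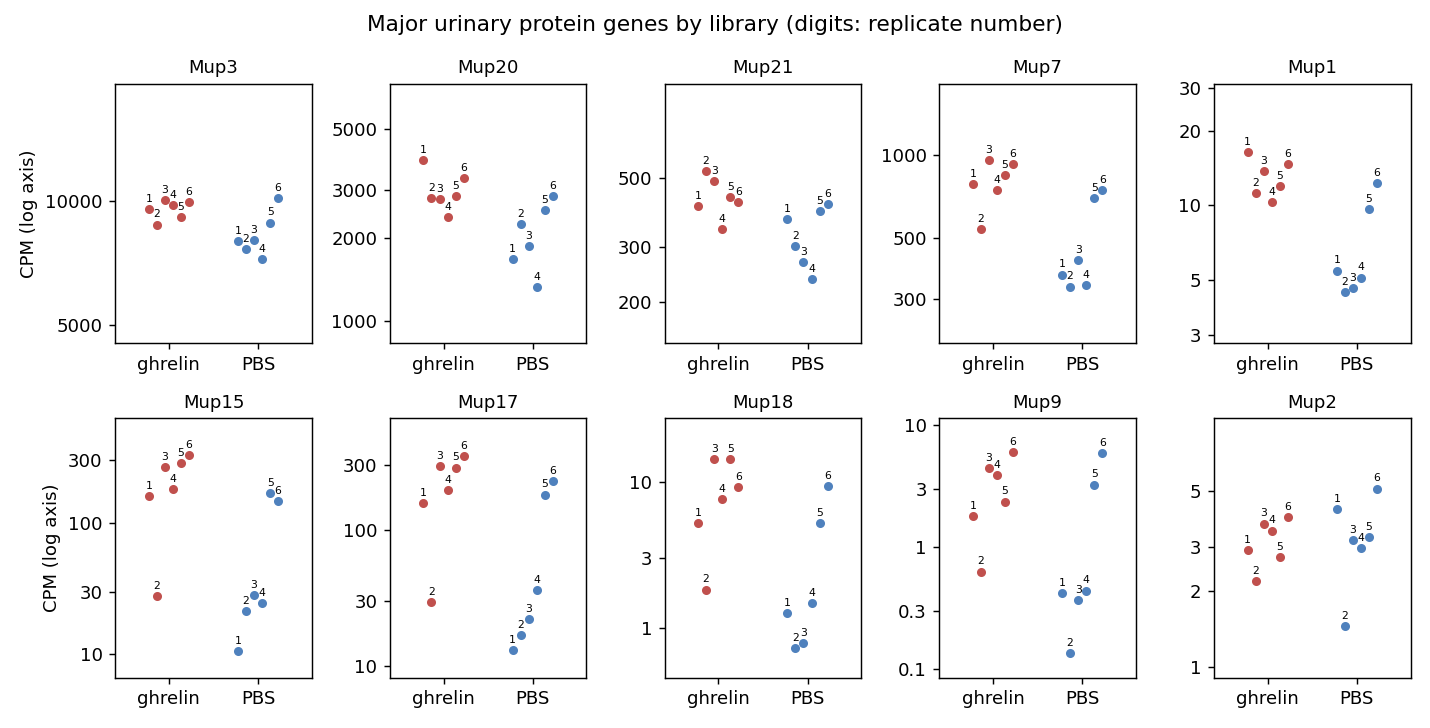
Level of each Mup gene in CPM (y axis, logarithmic, with its own scale per gene) in the 6 ghrelin livers on the left of each panel in red and the 6 PBS livers on the right in blue; digits are replicate numbers. For Mup7, Mup9, Mup15, Mup17 and Mup18, ghrelin 2 and PBS 1 to 4 are the 5 lowest livers, and PBS 5 and PBS 6 lie above ghrelin 2.

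The grouping of livers recurred across the members. Ghrelin 2 and PBS 1 to 4 were the 5 lowest livers for 6 of the 10 genes (Mup3, Mup7, Mup9, Mup15, Mup17 and Mup18), or 5 of 9 without Mup9, a pattern that 0.649% of all tested genes showed. PBS 1 to 4 were among the 5 lowest for 9 of the 10, every one but Mup2. For Mup20 and Mup21 the fifth was ghrelin 4, and for Mup1 it was PBS 5. The pattern was noticed in these values and then counted, so the count describes these 12 livers and carries no test. In the order of the deposited samples, PBS 1 to 4 came first, all ghrelin samples next, and PBS 5 and PBS 6 last. No label says what this order stands for, and its part in the grouping was not tested.

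The size of the swing between animals separated the members into sets. The standard deviation of log2 CPM within groups was 1.57 for Mup17, 1.51 for Mup9, 1.47 for Mup15 and 1.28 for Mup18, which placed these 4 at or above the 99.8th percentile of all tested genes. It was 0.48 for Mup2, 0.46 for Mup1 and 0.43 for Mup7. Mup20 had 0.33 and Mup21 had 0.27, and Mup3, at 0.14, lay below the median gene at 0.19. The highest liver exceeded the lowest 26.7-fold for Mup17 and 31.0-fold for Mup15, but only 2.91-fold for Mup20 and 1.41-fold for Mup3. Mup9 spanned 43.8-fold, though its lowest library held 3 counts.

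**Figure D3:**
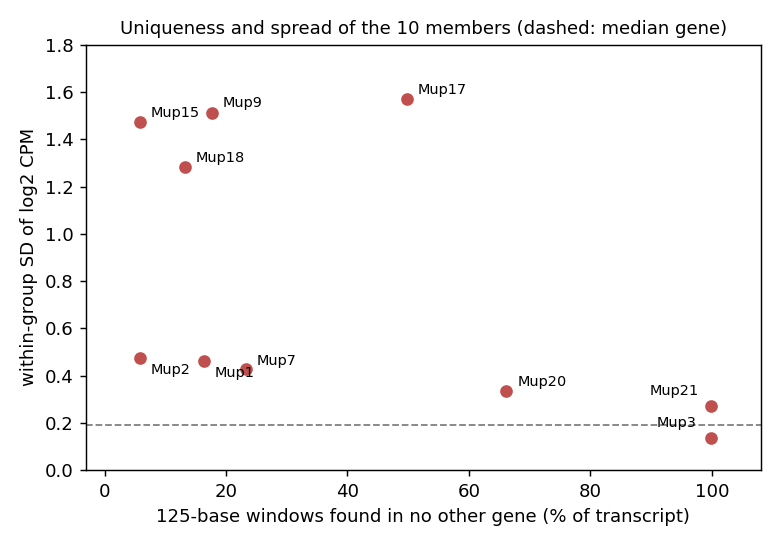
Within-group standard deviation of log2 CPM (y axis) of each of the 10 genes against the share of its 125-base transcript windows found in no other gene (x axis, percent); the dashed line is the median of all tested genes, 0.19. Mup15, Mup9, Mup18 and Mup17 lie high at 1.28 to 1.57, and Mup3 and Mup21, with nearly all windows unique, lie at 0.14 and 0.27.

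Spread and uniqueness are set side by side here as a description. Mup15 and Mup2 had about the same small share of unique windows, 5.87% and 5.85%, and their within-group standard deviations were 1.47 and 0.48. Their levels differed too, with the highest liver at 330 CPM for Mup15 and 5.11 CPM for Mup2. Mup17, with the largest unique share of the central genes at 49.8%, had the largest spread of the 10. Whether reads of one copy were counted under another was not tested.

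The composition of the family's RNA was compared within each library. Mup3 made up 67.2% ± 2.85 of the counts of the 10 genes in ghrelin livers and 73.6% ± 3.88 in PBS livers (SD, n = 6 each). Mup20 made up 21.0% ± 2.92 in ghrelin livers and 18.1% ± 2.55 in PBS livers. The 7 central genes together made up 8.70% ± 2.30 in ghrelin livers and 5.41% ± 2.11 in PBS livers. These shares and the ratios below depend on how reads that fit several genes were counted, which is not given. The ratio of Mup3 to the other 9 genes does not depend on scaling between libraries. On the log2 scale it was 1.04 ± 0.19 in ghrelin livers and 1.49 ± 0.29 in PBS livers (SD, n = 6 each), a difference of -0.45 (SE 0.14). The exact two-sided permutation test over all assignments of the libraries gave p = 0.0130, and 0.0390 after Benjamini-Hochberg adjustment over the 3 ratios tested.

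The same ratio differed by 0.27 (SE 0.15) for Mup20, with an exact permutation p of 0.0974 and an adjusted p of 0.146. For Mup21 it differed by 0.08 (SE 0.13), with an exact permutation p of 0.569 before and after adjustment. The Mup3 ratio was thus the only one of the 3 past the threshold, and it did not hold throughout. With all 43 rows with a Mup symbol in the denominator the difference was -0.43 (adjusted exact permutation p = 0.0519). It missed the threshold in 9 of 12 runs that left out 1 library, all but those without ghrelin 4, PBS 5 or PBS 6, with differences from -0.52 to -0.38 and adjusted exact permutation p from 0.0260 to 0.0779.

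**Figure D4:**
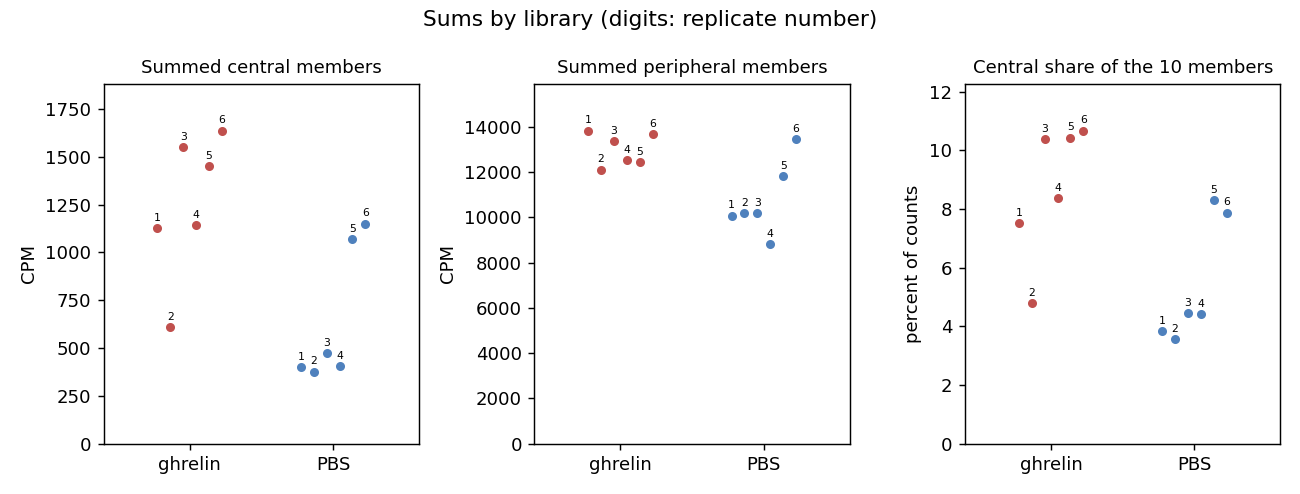
Summed level of the 7 central genes (left, CPM), of the 3 peripheral genes (middle, CPM) and the central share of the 10 genes (right, percent of their counts) in the 6 ghrelin livers in red and the 6 PBS livers in blue; digits are replicate numbers. The central sum spans 610 to 1637 CPM in ghrelin livers and 377 to 1151 CPM in PBS livers, while the peripheral sum spans 12107 to 13833 CPM in ghrelin livers and 8804 to 13456 CPM in PBS livers.

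Levels can be compared between genes only per length of transcript. Length does not correct for reads that could not be placed. The unique share of windows was 99.9% for Mup3, 66.2% for Mup20 and 5.85% to 49.8% for the central genes. If reads that fit several genes were dropped, the central genes would be set too low against Mup3, and this was not tested. On the scale of CPM per kilobase of annotated exon, averaged over all 12 livers, Mup3 stood first at 8378 ± 949 (SD, n = 12), followed by Mup20 at 2741 ± 758. Neither range overlapped with that of the next gene. Mup7 at 619 ± 224 and Mup21 at 564 ± 125 had overlapping ranges, with Mup7 the higher in 8 of 12 livers. Their order differed by group, with Mup7 at 772 and Mup21 at 642 CPM per kilobase in ghrelin livers, and Mup7 at 466 and Mup21 at 487 in PBS livers. Mup17 at 163 ± 134 and Mup15 at 149 ± 124 overlapped as well, with Mup17 the higher in 9 of 12 livers.

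At the low end of the order, Mup18 at 6.39 ± 5.42 and Mup1 at 6.30 ± 2.64 CPM per kilobase could not be separated, with Mup18 the higher in 5 of 12 livers. Mup2 at 2.45 ± 0.714 and Mup9 at 1.64 ± 1.45 CPM per kilobase came last, with Mup2 the higher in 9 of 12 livers. This low end depends on the length used. All annotated exon bases together came to 1584 for Mup1, 1336 for Mup2, 1499 for Mup9 and 930 for Mup18. The transcripts compared above had 927, 927, 909 and 930 bases. The order of the central genes, and their place against Mup3, Mup20 and Mup21, rests on how shared reads were treated. The 10 genes together held 93.3% ± 0.998 of the counts of all 43 Mup rows in ghrelin livers and 94.1% ± 1.62 in PBS livers (SD, n = 6 each), a share carried by Mup3 and Mup20. The other 33 rows summed to 1040 ± 221 CPM in ghrelin livers and 740 ± 327 CPM in PBS livers (SD, n = 6 each), which is of the order of the 7 central genes.

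Of those other 33 Mup rows, 13 passed the filter on low counts, and the other 20 held between 0 and 94 counts over all libraries. All 13 had a positive log2 fold change, where 50% of all tested genes had one. The median was 0.54 and the range ran from 0.11 for Mup-ps16 to 1.06 for Mup16. Mup8, Mup-ps13 and Mup-ps22 lay near the filter's floor of 0.494 CPM, with lowest PBS livers at 0.231, 0.419 and 0.157 CPM. They passed the filter only with ghrelin livers counted, the group in which they were high, so their positive values carry little weight. None was called by edgeR's quasi-likelihood test with Benjamini-Hochberg adjustment, with adjusted p from 0.264 to 0.913, and 5 were higher at an unadjusted p under 0.05, beside 6.44% of all tested genes. Mup16 had 78.1 ± 27.5 CPM in ghrelin livers and 37.5 ± 27.4 CPM in PBS livers (SD, n = 6 each). Mup11, the most abundant of the 13, had 468 ± 122 CPM in ghrelin livers and 318 ± 181 CPM in PBS livers. Ghrelin 2 and PBS 1 to 4 were the 5 lowest livers for 6 of the 13, beside 0.649% of all tested genes. Mup8 is among these 6 and among the 5 at an unadjusted p under 0.05. Several of the 13 share most of their windows with a member, as Mup19 with Mup9 (67.2%) and Mup12 with Mup1 (74.7%). Mup-ps20, Mup-ps21 and Mup-ps22 share none with any other gene. The 13 rows are thus not observations apart from the members, and the part of shared reads was not tested. With all Mup rows summed, the log2 fold change was 0.33 (SE 0.11), beside 0.32 for the 10 members.

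Genes around and between the Mup genes were measured as well. Of 13 measured neighbours that are not Mup genes, 9 had a positive log2 fold change, the median was 0.07 and none was called. Their log2 fold changes ran from -0.20 for Zfp37, which encodes a zinc finger protein, to 0.76 for Gm13773. Gm13773, a noncoding transcript on the plus strand at chr4:60502841-60521169 beside the start of Mup1, was the 1 neighbour higher at an unadjusted p under 0.05 (SE 0.32, adjusted p 0.335 by edgeR's quasi-likelihood test with Benjamini-Hochberg adjustment). It had 0.564 to 1.55 CPM in ghrelin livers, while its lowest PBS liver, at 0.317 CPM, was under the filter's floor of 0.494 CPM. Gm13773 was thus kept only with the ghrelin livers counted, the group in which it was high. Outside the array, Snx30, a sorting nexin gene, had 0.20 and Slc31a1, the gene of a copper importer, had -0.11.

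**Figure D5:**
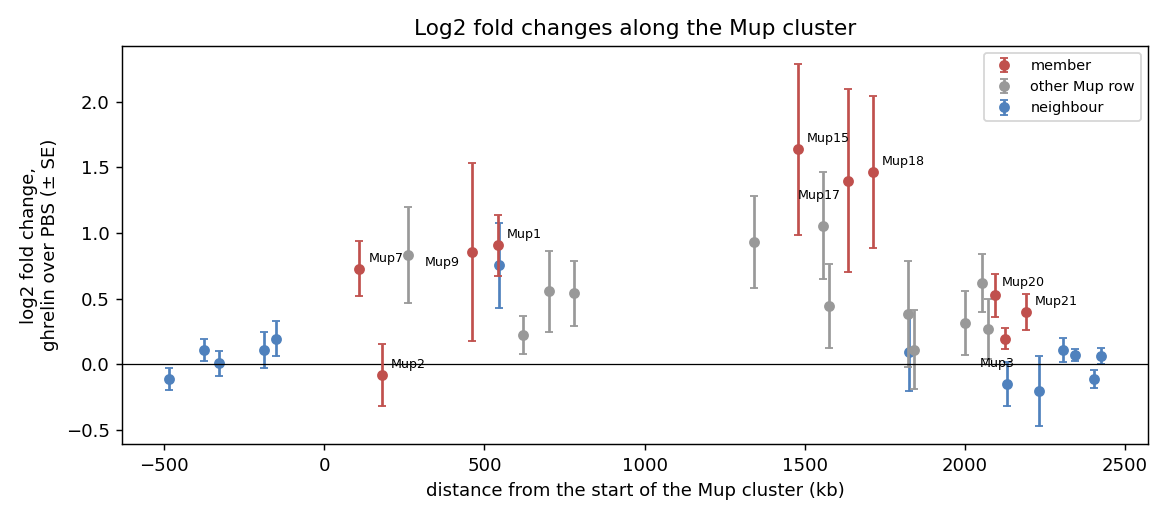
Log2 fold change of ghrelin over PBS livers (y axis, bars are ± 1 SE) against distance from the start of the Mup cluster in kilobases (x axis) for the 10 members in red, other tested Mup rows on the same chromosome in grey and 13 neighbouring genes in blue. Members in the middle of the cluster reach 1.64, those at its end lie between 0.20 and 0.53, and the neighbours lie between -0.20 and 0.76.

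Promoter sequences, each of 300 bases that end 50 bases after the annotated start, were found in RefSeq (GRCm38.p6) for 8 of the 10 members, all but Mup1 and Mup20. The promoters of Mup17, whose level swung widely between livers, and Mup3, whose level hardly did, are printed 5′ to 3′ on the minus strand, with motifs in capitals.

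Mup17 promoter (chr4:61595783-61596082): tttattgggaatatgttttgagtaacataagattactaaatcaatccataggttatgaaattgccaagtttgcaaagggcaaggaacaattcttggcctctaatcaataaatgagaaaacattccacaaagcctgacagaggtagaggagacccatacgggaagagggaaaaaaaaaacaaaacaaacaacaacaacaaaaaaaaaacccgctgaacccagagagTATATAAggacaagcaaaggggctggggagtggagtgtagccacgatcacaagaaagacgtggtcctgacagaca
Mup3 promoter (chr4:62087268-62087567): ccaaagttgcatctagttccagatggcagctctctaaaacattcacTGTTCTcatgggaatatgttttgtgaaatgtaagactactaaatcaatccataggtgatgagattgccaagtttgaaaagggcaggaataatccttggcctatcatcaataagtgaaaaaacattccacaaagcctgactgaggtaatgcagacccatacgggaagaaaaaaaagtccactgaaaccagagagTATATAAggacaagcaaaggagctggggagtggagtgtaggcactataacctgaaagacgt

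The 3 motifs were searched on both strands, with no overlap between their matches in these windows. The TATA-type element TATATAA was in 7 of the 8 promoters, every one but that of Mup7, and in 3.24% of 32851 promoters of the same length. The window of Mup7 ended in letters that in Mup17 lie upstream of TATATAA, so the matching stretch of Mup7 was not searched. The element lay 25 bases before the annotated start in Mup15 and Mup17 and 11 bases before it in Mup3. The hexamer TGTTCT, the core of a steroid hormone response element of the glucocorticoid type, was in 2 of the 8, those of Mup3 and Mup21, and in 19.0% of all promoters. The spaced palindrome TTCNNNGAA, which the growth hormone effector STAT5 is known to bind, was in none of the 8 and in 8.30% of all promoters. No match says only that these letters are not in this window.

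Genes known to act in growth hormone signalling or in the control of Mup genes were examined as a list of 20, of which 19 were tested. Their log2 fold changes had a median of 0.01, with 10 positive and 9 negative. The same test called none of them higher and 1 lower, where 0.0635% of all tested genes were called lower. At an unadjusted p under 0.05, 4 were higher and 3 lower, where 6.44% of all tested genes were higher and 6.94% lower. Stat5a, a transcription factor downstream of the growth hormone receptor, had 11.2 ± 2.81 CPM in ghrelin livers and 7.48 ± 0.762 CPM in PBS livers (SD, n = 6 each), a log2 fold change of 0.58 (SE 0.14) with an adjusted p of 0.140 by edgeR's quasi-likelihood test with Benjamini-Hochberg adjustment. Its paralogue Stat5b, the main mediator of male-pattern growth hormone signals, stood at 0.29 on the same scale (SE 0.10) and its adjusted p was 0.241 by the same edgeR test with Benjamini-Hochberg adjustment. The receptor gene Ghr had -0.04 (SE 0.07). Of the negative feedback genes that growth hormone induces, Cish had -0.83 (SE 0.66) and Socs2 had -0.22 (SE 0.43). Igf1, the secreted growth factor made under growth hormone, had -0.18 (SE 0.07). Others on the list were positive, with Socs3 at 0.71 (SE 0.37) and Igfals at 0.21 (SE 0.10). Zhx2 and Zbtb20, zinc finger genes that act on liver gene expression, had -0.03 (SE 0.07) and 0.01 (SE 0.09).

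Male-biased liver genes outside the family, which answer to the same hormone pulses, were listed as 17 genes and all were tested. Of these, 16 had a positive log2 fold change, where 50% of all tested genes had one, and the median was 0.48. None was called by edgeR's quasi-likelihood test with Benjamini-Hochberg adjustment, and 13 were higher at an unadjusted p under 0.05, beside 6.44% of all genes. The list was chosen with earlier results of these data known, so these counts are a description and carry no test. Serpina1e, a serine protease inhibitor gene with near-identical copies, had a log2 fold change of 0.48 (SE 0.11), Elovl3, a fatty acid elongase gene, had 0.75 (SE 0.24), and Selenbp2, a selenium-binding protein gene, had 1.16 (SE 0.31). Slco1a1, an organic anion transporter gene, was the 1 negative gene at -0.07 (SE 0.07). Of 11 other lipocalin genes listed, 9 were tested and none was called, and their log2 fold changes, 4 above and 5 below 0, had a median of -0.02. C8g, a complement component, had 0.19 (SE 0.07) and Lcn2, an acute-phase lipocalin, had -1.42 (SE 0.79).

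Genes whose log2 CPM followed the summed Mup members most closely over the 12 livers were named by Pearson's r. They were ranked among 11357 genes outside the family with a mean of at least 1 CPM. Genes with provisional symbols, such as those that end in Rik, were left out. The 5 highest were Trit1, Bpgm, Ugt2b37, Kank1 and Daglb, with r from 0.947 to 0.928 (Spearman's rho from 0.937 to 0.860). The 5 lowest were Pcbp2, Myst3, Pcsk5, Fam35a and Ubr2, with r from -0.971 to -0.918. With group means removed, r was 0.922 for Trit1 and -0.976 for Pcbp2. These are extremes of many genes over 12 libraries that share treatment groups and scaling, and they are a description with no test.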

How the data were processed

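Per the labels' protocols, total RNA of 12 livers was depleted of ribosomal RNA and made into stranded libraries. The deposited values are raw, whole-number exon counts per gene. Alignment was to mm10 by STAR 2.4.0i, per the submitters' processing notes. Which tool made the counts, how it used strand and what it did with reads that fit several genes is not given in the sources used here. Groups and replicate numbers were taken from titles and treatment labels. No library was counted as a repeat of another, since within-group pairs varied 10.8 to 44.4 times as much as counting error alone would give.

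In R 4.3.3 with edgeR 4.0.16, genes were filtered by filterByExpr (at least 10 counts, and 15 in total), scaled by TMM and compared by the two-sided quasi-likelihood F test over 6 ghrelin and 6 PBS libraries (biological coefficient of variation 0.145). Calls required a p under 0.05 after Benjamini-Hochberg adjustment over 14170 genes. The SE of a log2 fold change was derived from its F statistic. Sums were fitted as 1 row in place of their members and carry no p. Log2 CPM used a prior count of 2, and CPM values the TMM factors. Exact permutation tests used scipy 1.17.1, and alignments Biopython 1.88. The method was tested on simulated counts. Alternatives were DESeq2 1.42.0, other scalings, no filter, robust dispersion, a replicate block and leaving out each library.

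Of the table's gene identifiers, 36308 of 38087 (95.3%) matched GENCODE M21; sequences are reference letters, not reads. Named genes were all members, the other Mup rows, genes of 4 fixed lists (regulators, lipocalins, male-biased genes, neighbours) and the 5 genes most and least like the sum. Members and lists were chosen with earlier results of these data known. Some genes that these rules take in, the 1 called gene of the regulator list among them, are not reported here. Counting limits cover counting error only, since PCR copies are not independent molecules.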

Additional observations from a re-analysis of the deposited data

How the results depend on the processing

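1 choice was changed at a time, in 7 other settings and 12 runs that each left out 1 library. The summed members kept a positive log2 fold change, from 0.27 to 0.41 without 1 library and from 0.32 to 0.34 under the other settings. The number of members with a positive value was 9 in the other settings and 9 to 10 without 1 library. Members higher at an unadjusted p under 0.05, a count chosen after seeing the data, numbered 5 to 9. Beside them, 756 to 1049 of all tested genes were higher at that threshold without 1 library, and 873 to 1263 in the other settings. The 1263 came with no low-count filter, with 27410 genes in the fit. Without PBS 6, Mup9, Mup17 and Mup18 moved to 1.76, 2.02 and 2.19. Their lowest values without 1 library were 0.58, 1.18 and 1.26. Calls moved more. The 15 genes called became 63 with no low-count filter, 204 under DESeq2, 9 with robust dispersion and 0 to 32 without 1 library. The 0 members called became 1 under DESeq2 (Mup1) and 0 to 1 without 1 library, where Mup1 passed without PBS 6. The Mup3 ratio kept its sign, from -0.52 to -0.38 without 1 library, and with all Mup rows in the denominator (-0.43) missed the threshold. Signs turned for Mup2 without ghrelin 2 (0.00249) and without PBS 6 (0.0800), with a range from -0.24 to 0.08. The Mup21 ratio turned without ghrelin 2 (-0.0105), within a range from -0.01 to 0.14. The causes were not tested.

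With the replicate number as a block, 58 genes and 1 member (Mup7, adjusted p 0.0417 by edgeR with Benjamini-Hochberg adjustment) were called. Same-numbered libraries deviated together with r from -0.08 to 0.27, and 3 of 6 correlated best with their own number. No label says that the numbers pair samples, so they were not taken to, and these values do not settle it. Under the block the SE of the summed central genes was 0.17 instead of 0.31. Members higher at an unadjusted p under 0.05 by the edgeR test numbered 9 instead of 7, and all genes higher at it numbered 966 instead of 913. Other scalings moved the median log2 fold change of all genes by at most 0.01. Counts under 10, as for Mup9 in several PBS libraries, limit what its fold can show.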

Other observations

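Mup17, the member with the widest spread, was also set beside the same 11357 genes outside the family, provisional symbols left out. These had a mean of at least 1 CPM, and the comparison was chosen after the values of Mup17 were seen. The genes most like it over the 12 livers by Pearson's r of log2 CPM were Capn8 (0.945), a calpain protease gene, Ugt2b37 (0.924), a glucuronosyltransferase gene, and Rarres1 (0.917). Among the least like it were Nt5c2 (-0.904), Zfp142 (-0.893), Pcsk5 (-0.893) and Cyp39a1 (-0.877), an oxysterol hydroxylase gene. Ugt2b37 and Pcsk5 were also among the extremes for the summed members. With group means removed, r was 0.920 for Capn8. These values are a description of 12 livers that share treatment groups and scaling, and no p is given.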
